A study of Danio rerio with 13 samples.

Results

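Promoters that carried H3K27me3 and little H3K4me3 in the zebrafish ventricle were 925 windows of 711 genes, out of 42037 promoter windows of 24438 genes (2.20% of the windows). Each member window is 4000 bases long and lies around an annotated gene start. A window was a member if its mean H3K27me3 was at least 110 normalised reads and its mean H3K4me3 was below 60. Mitochondrial windows and those of chromosome 4 starting beyond position 27000000 were left out by the same rule, which took away 1651 windows, 106 of them within both thresholds. The members were thus chosen by the mean levels of both marks over resected and uninjured libraries together, and those levels are given below as a description. The change after injury was not used in the choice.

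Trimethylation of histone H3 at lysine 27 (H3K27me3) is written by PRC2, a Polycomb complex, and is typical of developmental genes kept silent in a cell lineage. Trimethylation at lysine 4 (H3K4me3) sits at the starts of active or poised genes and is laid down by the SET1 and MLL complexes. A promoter with the first mark and little of the second is the classical Polycomb-silenced state, while promoters with both are called bivalent. In bulk tissue, both marks at a window can also lie in different cells.

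The libraries came from 12 chromatin immunoprecipitations with sequencing (ChIP-seq) on TuAB fish aged 1 to 1.5 years. For each mark there were 3 libraries from ventricles 5 days after resection of the apex and 3 from uninjured ventricles, and 1 mixed input DNA sample was not used here. All were taken from the apical part of the ventricle, dissociated, and strained on a 10 micrometre mesh that keeps cardiomyocytes, the contracting muscle cells, and lets smaller cells through. The deposited tables give each window's mean over all libraries of a mark and the authors' comparison of resected with uninjured ventricles, so no value per library, library depth or SD between libraries can be shown.

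H3K4me3 stood above the median of all windows at some genes of cardiomyocytes and of other cell types, and below it at others. H3K4me3 at the most marked window of the cardiomyocyte genes myl7 and tnnt2a was 187 and 119 normalised reads in the authors' deposited table, against a median of 82.9 over all windows, while vmhc and myh6 stood at 49.8 and 46.5. Over 6 cardiomyocyte genes it ranged from 46.5 to 187, over 4 endothelial genes, such as kdrl, from 190.5 to 441, over 4 leukocyte genes, such as mpx and coro1a, from 41.3 to 125, and over 4 epicardial and fibroblast genes from 84.0 to 302. The levels that define the members thus describe material that cannot be taken as a pure cell type. How far the mesh enriched cardiomyocytes was not tested. Fewer cells of a type and less of a mark per cell cannot be told apart in such material.

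The H3K27me3 level of the members had a median of 131 normalised reads (quartiles 119 and 146), against 56.1 over all windows. Their H3K4me3 level had a median of 44.4, close to the 38.6 of windows that lay below both thresholds and far from the 235 of windows with H3K4me3 alone. Of the 1390 windows with H3K27me3 at or above 110, members were 66.5%, and the other 465 carried both marks, with a median H3K4me3 of 83.6. The range among the members was narrow: 742 lay below 150 normalised reads of H3K27me3, 169 between 150 and 200, and 14 at 200 or more. No gap separates the members from the windows next to them. Just inside the H3K27me3 threshold lay gbx1, pcdh1g26 and myhz1.1 at 110.1 normalised reads each, and just outside lay tmeff2a at 109.9, pxna at 109.9 and glt8d1 at 109.8. Just inside the H3K4me3 threshold lay egr2b, hpse2 and cux2b at 59.9, 59.8 and 59.7, and just outside lay ankrd13b, jac2 and lim2.5 at 60.2, 60.3 and 60.5.

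**Figure D1:**
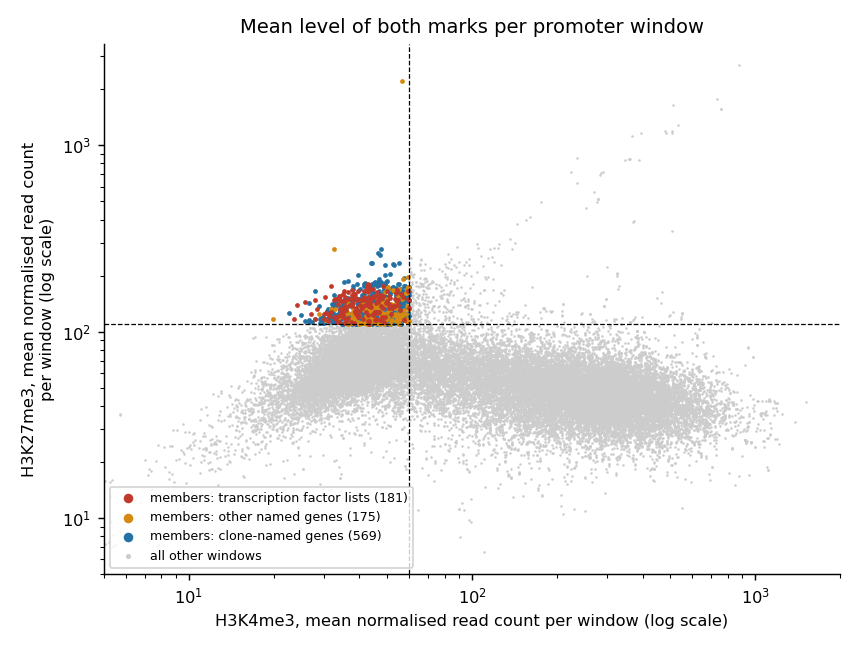
Mean level of H3K27me3 against mean level of H3K4me3 (normalised reads per window, log scales), with 1 point per promoter window and dashed lines at the thresholds of 110 and 60. Members in the transcription factor lists are red, other named genes orange and clone-named genes blue; all other windows are grey. The members continue the upper edge of the cloud of windows with little H3K4me3, and a single member, dusp27 at 2202, stands far above the rest.

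The members fell into 3 groups by gene name. Genes in 10 lists of developmental transcription factors held 181 windows of 133 genes, or 19.6% of the members (95% Wilson interval 17.1% to 22.2%, covering counting error only). That interval takes windows as independent, which they are not, since overlapping members join into 686 separate stretches. It does not measure the spread between libraries. Genes with no symbol beyond the name of a sequenced clone held 569 windows of 425 genes, or 61.5%. Other named genes held 175 windows of 153 genes, or 18.9%. Set against the table as a whole, 27.6% of the 655 windows in the transcription factor lists were members, against 5.67% of the 10030 clone-named windows and 0.558% of the 31352 other windows. A current gene name table held 305 of the 425 clone-named genes and gave 26 of them a symbol that is not a clone name. With suffixes dropped, 6 were HTRA2 and 3 were znfl1, and foxo6a and pou4f4 were among the others. Some of the 26 are placeholders, such as LINC.3852.

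Homeobox genes, which encode factors that give cells their position and identity in the embryo, led the list. Among Hox and ParaHox genes, the factors of the head-to-tail axis, 38 of 46 windows were members and 6 more carried both marks. Pax genes, which specify eye, kidney, thyroid and muscle precursors, had 16 of 18 windows among the members and no window with both marks. In the NK and LIM class 29 of 46 windows were members, and among other homeobox genes 50 of 107.

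Among the most marked windows in these lists were those of hoxc9a at 178 normalised reads of H3K27me3, hoxc6a at 176 and hoxb7a at 175. Pax3a and pax7b, which mark muscle precursors, had 167 and 151, and pax6b, an eye and pancreas factor, had 156. Sensory and nervous system regulators had similar levels. The spleen and neuron factor tlx1 had 165, the forebrain factor lhx9 had 165, and the hypothalamic factor otpa had 161. The forkhead gene foxg1a, a forebrain factor outside the homeobox lists, had 163. H3K4me3 at these windows lay between 32 and 60 normalised reads.

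Outside the homeobox genes the share was lower. Members were 7 of 32 Sox windows, 13 of 75 forkhead windows, 7 of 43 windows of basic helix-loop-helix (bHLH) fate genes and 16 of 118 windows of zinc finger fate genes. Sox2, a neural progenitor and pluripotency factor, stood at 144 normalised reads of H3K27me3 with only 25.7 of H3K4me3. Tfap2a, a neural crest factor, stood at 174 and 43.0. Atoh1a, the hair cell determinant, stood at 149.8 and 37.6, and myod1, the skeletal muscle determinant, at 132 and 34.5. Among T-box genes 4 windows were members and 9 carried both marks. Of 137 nuclear receptor windows a single one, nr2e1 at 134, was a member, and 2 carried both marks.

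Members were 5.66% to 8.33% of the windows in the lists of signalling ligands, against 2.20% of all windows. Wnt ligands and modulators had 4 of 48: wnt8a at 136 and, under another gene ID with an overlapping window, 128; wnt1 at 130.2; and the Wnt antagonist dkk1b at 123. FGF ligands had 2 of 29, fgf4 at 129.6 and fgf8a at 122. The morphogen gene shha, at 139, was the single member of 16 Hedgehog and Notch ligand windows. The 3 windows of the activin antagonist fsta stood at 125. They overlap almost entirely and are the only members of the BMP and TGF-beta list, so its 5.66% rests on 1 of 41 genes. Chosen after their values were seen, the neurotrophic factor genes bdnf and gdnfa had 144 and 122.

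Lists of genes used by differentiated cells, not restricted to cells outside the heart, differed widely in their share of members, which was 2.20% over all windows. No member lay among 182 axon guidance windows, 127 synaptic adhesion windows, 82 windows of opsin, crystallin and phototransduction genes or 83 windows of keratin and claudin genes. Channels gave 2 of 219 windows (0.913%), the sodium channel genes scn8aa at 116 and scn8ab at 111. Neurotransmitter receptors and transporters gave 5 of 219 (2.28%), with the vesicular GABA transporter slc32a1 highest at 131. These 6 lists had median H3K4me3 levels between 40.7 and 48.1 normalised reads, near the 44.4 of the members, and median H3K27me3 between 63.7 and 70.9. The neuropeptide list had 4 of 62 (6.45%), belonging to adcyap1b, with 154 at its highest window, and kiss1, with 118. The protocadherin and cadherin list had 19 of 151 (12.6%). Skeletal muscle genes had 8 members of 107 windows (7.48%), 5 of which belong to the regulators pax3a, pax7a, pax7b, six1a and six1b, with myod1, chrnb1l and the myosin gene myhz1.1 as the others.

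Markers of the cells in the sample are read against the same 2.20% of all windows. The sarcomere list had 1 member of 323 windows, myhz1.1 at 110.1, and no member lay among 67 endothelial, 123 leukocyte or 71 erythroid and thrombocyte windows. Of the 71 windows of epicardial and fibroblast markers, 2 (2.82%) were members, both of prrx1b, at 138 and 133. No window of the 81 of PRC2 and PRC1 genes or the 254 of ribosomal protein genes was a member. Several of these lists did hold windows with both marks, which numbered 465 of all 42037 windows. There were 2 in the sarcomere list, 5 leukocyte (4.07%), 8 erythroid and thrombocyte (11.3%) and 3 epicardial and fibroblast windows (4.23%). PRC2 and PRC1 genes had 1 and ribosomal protein genes 5, while the endothelial list had none.

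**Figure D2:**
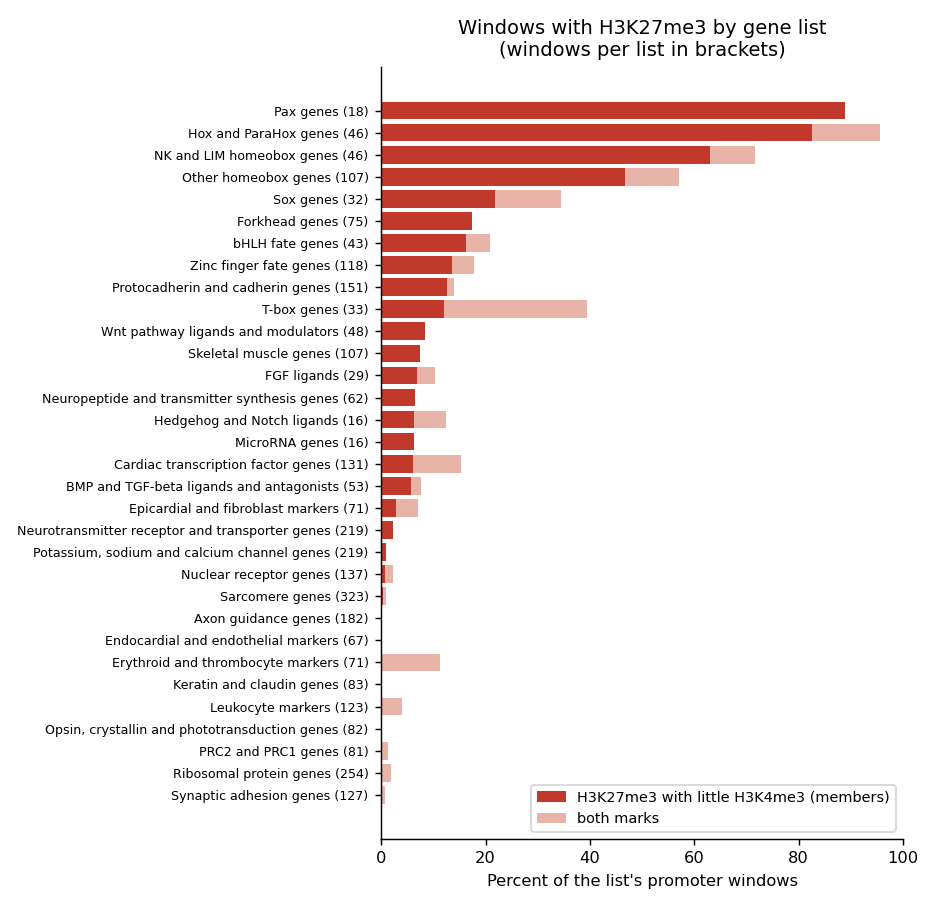
Share of each gene list's promoter windows that carried H3K27me3, split into members (dark red, H3K4me3 below 60) and windows with both marks (light red); the number of windows is given after each list's name. Pax, Hox and ParaHox, NK and LIM and other homeobox genes have the largest shares of members, from 46.7% to 88.9%, and 9 lists have no member.

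The cardiac transcription factor genes fell on both sides of the H3K4me3 threshold. Of 131 windows in that list, 20 had H3K27me3 at or above 110. Of these, 8 were members, among them the windows of irx3b, irx5b, isl1, meis2b and nkx2.7, and their H3K4me3 lay between 33.2 and 43.7 normalised reads. The 12 windows with both marks belonged to irx1a, irx2a, irx3a, nkx2.5, tbx1, tbx2a and tbx5a, with H3K4me3 between 63.4 and 209. The median H3K27me3 was 135 in the members and 131 in the windows with both marks.

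The change of H3K4me3 after resection is given side by side for both kinds of window. In the authors' deposited table, the log2 fold changes of H3K4me3, resected over uninjured, had a median of 0.01 at the 8 members and no adjusted p was given to any of them. Nkx2.7 had 0.54 (SE 0.30), irx5b 0.14 (SE 0.30), meis2b 0.08 (SE 0.30), irx3b −0.29 (SE 0.30) and isl1 −0.52 (SE 0.30). At the 12 windows with both marks the median was −0.67, with a range from −1.36 at nkx2.5, the cardiac fate factor, to 0.29 at tbx1. Of those 12, 4 windows of 3 genes had an adjusted p under 0.05 (DESeq2, Wald test), against 3.04% of all windows with an adjusted p, and 2 of the 4 are overlapping windows of irx1a. The change of H3K4me3 is also given for a few marker genes per cell type. These were picked by hand, and direction was not counted over the full marker lists. Of 6 cardiomyocyte genes 5 were below 0 and 3 were called lower (myl7 −1.52, nppa −1.51 and tnnt2a −1.13), and of 4 endothelial genes all 4 were below 0 and 1 was called. All 4 leukocyte, 3 erythroid and 4 epicardial and fibroblast genes were above 0, with coro1a (1.04), hbba1 (0.88), tbx18 (1.04) and wt1b (1.00) called higher. The smallest of these values were 0.08 at mpx, 0.10 at col1a2 and 0.17 at alas2, none of them called. For hbba1 the value is that of its most marked window. Windows of another gene ID of hbba1 had 0.69 to 0.73 and were not called (adjusted p 0.114 to 0.164, DESeq2, Wald test). The part of these markers' cells in the values above was not tested. At the 8 members the SEs lie near the ceiling of about 0.30 described below, which marks shrunken fold changes. Their H3K4me3 of 33.2 to 43.7 normalised reads also lay near the 38.6 of windows below both thresholds. The medians of 0.01 and −0.67 thus do not rest on equal ground, and the difference between the sets was not tested.

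Many fish genes exist as a and b copies from the genome duplication of teleosts, and copies could be compared directly. Of 35 member genes of the transcription factor lists whose other copy is in the table, 24 had that copy among the members too, as in pax2a and pax2b, pax6a and pax6b, pax7a and pax7b, six1a and six1b, and dlx4a and dlx4b. Another 7 had a copy below both thresholds, 1 a copy with both marks and 3 a copy with H3K4me3 alone. The 24 genes make up 12 pairs, each counted from both copies, while a pair with a single member is counted from that copy only. Of all genes in these lists, 133 of 410 had a member window. Some copies differed widely. Irx5b had 117 normalised reads of H3K27me3 and 33.2 of H3K4me3, and irx5a had 91.1 and 597. Irx3b had 125 and 38.9, and irx3a had 133 and 99.7. The mesenchymal factor prrx1b had 138 and 53.3, and its copy prrx1a had 90.1 and 102. Among other named members, 2 of 24 had the other copy among the members, namely scn8aa and scn8ab, which are copies of each other. The thioredoxin-interacting protein gene txnipb had 129 normalised reads of H3K27me3 and 44.5 of H3K4me3, and txnipa had 34.4 and 879.

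H3K27me3 was high across the Hox clusters. The table holds 42 Hox windows of 27 genes, and each had H3K27me3 at or above 110, between 119 and 178 normalised reads. Of these, 36 were members. The other 6, with H3K4me3 of 61.2 or more, carried both marks and were windows of hoxc5a on chromosome 23 and of hoxb6a, hoxb5a, hoxb4a, hoxb3a and hoxb2a on chromosome 3.

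On chromosome 3 the Hox windows spanned 95.5 kb, on chromosome 23 they spanned 61.3 kb, and on chromosomes 16 and 9 they spanned 34.8 kb each. In the hoxb cluster on chromosome 3, H3K4me3 alternated along the chromosome. It was 37.7 normalised reads at hoxb9a, 31.7 at hoxb7a and 24.0 at the first window of hoxb3a, then 70.7 at hoxb6a and 77.6 at hoxb5a. The windows of hoxb4a had 52.4 and 118, the further windows of hoxb3a had 33.2, 50.01 and 94.4, and hoxb2a and hoxb1a had 67.4 and 40.1. The microRNA gene mir196c, which lies between hoxc genes on chromosome 11, was a member at 133 and 32.8. The clusters on chromosomes 9, 11, 16 and 19 had H3K4me3 below 60 at each of their windows.

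Single genes held windows of different kinds within a cluster. Hoxb4a had a member window 33.5 kb from the first Hox window with 137 normalised reads of H3K27me3 and 52.4 of H3K4me3, and another at 44.5 kb with 167 and 118. Most Hox windows were given no adjusted p for H3K4me3. Of those that were, the hoxb4a window at 44.5 kb, no member, stood alone under 0.05. The background was 3.04% of all windows with an adjusted p. Its log2 fold change at that hoxb4a window was 0.82 (SE 0.25, adjusted p = 0.0438, DESeq2, authors' deposited table). Over the 36 Hox members the median log2 fold change in the authors' deposited table was −0.03 for H3K27me3 and −0.09 for H3K4me3, and 17 of the 36 values for H3K27me3 were above 0.

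**Figure D3:**
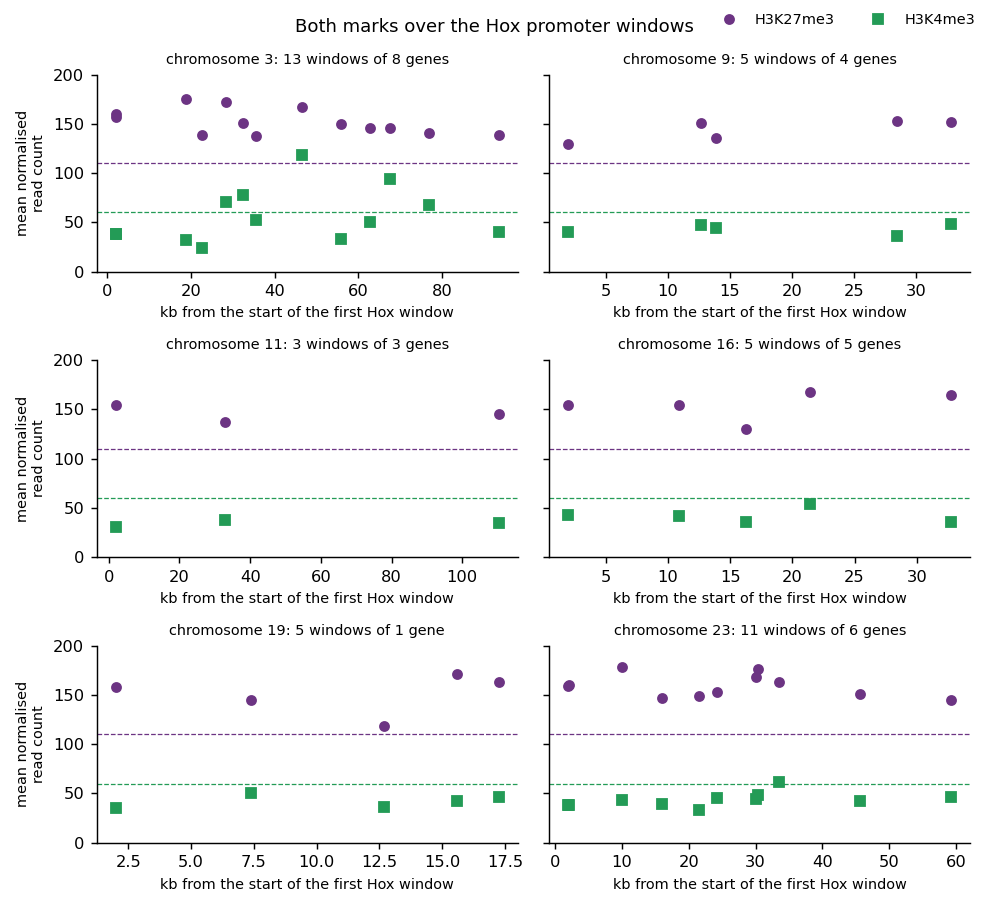
H3K27me3 (purple circles) and H3K4me3 (green squares) at the 42 Hox promoter windows, as mean normalised reads over resected and uninjured libraries together, against the distance in kb from the start of the first Hox window of each chromosome to the window's centre. Dashed lines mark the thresholds of 110 and 60; H3K27me3 is above its line at each window, and H3K4me3 crosses its line at windows on chromosomes 3 and 23.

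Members often had a marked neighbour. Taking for each window the nearest window of another gene that does not overlap it, 27.5% of members had a neighbour with H3K27me3 of at least 110, against 21.9% of windows with both marks, 3.33% of windows below both thresholds and 4.16% of all windows. The share was 32.6% in the transcription factor lists, 26.5% among clone-named genes and 25.1% among other named genes. Joined across gaps of up to 50 kb, members formed 564 stretches, of which 401 were a lone window and 26 held 3 or more genes with 150 windows in all. Chromosomes 13, 11 and 15 had the largest shares of their windows among the members (3.91%, 3.60% and 3.40%), and chromosome 1 the smallest (1.21%).

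Apart from Hox, some of the stretches with the most genes held several genes of a named family, and others held mostly clone-named genes. Whether the clone-named genes are related was not tested. Reads from near-identical copies may be split or misplaced, so levels in such families are uncertain. The clustered protocadherin genes, whose products give neurons their adhesive identity, made up most of a stretch of 84.3 kb on chromosome 14. It held 12 windows of 11 gene IDs, with H3K27me3 between 124 and 173. Among them were the clone-named si:dkey-262j3.7 and si:dkeyp-115d7.2, and some windows, such as that of pcdh2ab3, are listed under 2 gene IDs. A stretch of 143 kb on chromosome 13 held 18 windows of 8 genes, among them pimr151 and pimr156. The pimr genes, a fish family related to the Pim kinases and picked out after values were seen, had 26 of 72 windows among the members, on 9 chromosomes. Their log2 fold change of H3K27me3 in the authors' deposited table was above 0 at 24 of those 26 windows, with a median of 0.32. The share above 0 was 72.6% over all members and 48.9% over all windows. Some of the 26 windows overlap, such as those of pimr194, so they are not independent. Genes named Metazoa_SRP, the RNA of the signal recognition particle, had 10 of 38 windows among the members, all on chromosome 11.

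The member with the most H3K27me3 was that of dusp27, which encodes a catalytically inactive phosphatase of muscle, at chr15:69684-73683 in the deposited coordinates, with 2202 normalised reads. The next named gene, SMARCA4 (1 of many), had 279. H3K4me3 at the dusp27 window was 56.5 normalised reads. Below these, Metazoa_SRP genes and the Hox genes already named came, among others, tfap2a at 174, the immunoglobulin light chain gene igl4v8 at 173 and lzts3a at 169.9. Extreme values also occurred outside the members. The highest was 2712 among windows with both marks and 1217 among those left out by the rule, against medians of 143 and 70.1. The input DNA was not used, so whether the read count reflects the mark was not tested at any member, dusp27 among them.

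Some members were one of several annotated starts of a gene, with H3K4me3 at another start. Of the 711 genes, 488 had a single window and 223 had more than 1. In 595 genes each window was a member, a count that includes the genes with a single window. Another 65 genes had 97 further windows over 4 kb from any of their member windows. Of those, 66 were below both thresholds, 19 had H3K4me3 alone and 12 had both marks. The genes with the most H3K4me3 at such a window were examined further. The protease gene ctsa had 110.4 normalised reads of H3K27me3 and 48.8 of H3K4me3 at its member window, and 38.9 and 510 at another window 22.1 kb away. Btf3, a subunit of the nascent polypeptide-associated complex, had 134 and 53.7 at its member window, and 72.3 and 428 at another 4.38 kb away. That member window overlaps nearly all of the foxd1 window, itself a member at 134 and 52.3, so the levels of both are shared. H3K4me3 was also high at another window of tsnaxip1, ppfia1 and pbx2, with 608, 452 and 329 normalised reads. The member windows of these last genes overlap no window of another gene. Overlap at their other windows, where H3K4me3 was high, was not examined, nor at those of ctsa and btf3.

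The comparison of resected with uninjured ventricles asked whether the marks at these promoters change while the heart regenerates. For H3K27me3 the authors' deposited table (DESeq2) called none of the 925 members at an adjusted p under 0.05, against 0% of 41673 windows with a p-value. At an unadjusted p under 0.05 there were 18 members (1.95%), against 3.14% of all windows. Of these, 16 were higher after resection (1.73% of members, background 0.996%) and 2 were lower (0.216% of members, background 2.15%). The 16 windows belonged to few genes, since 5 were overlapping windows of si:dkey-260c8.6 and 3 of CR388168.2.

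Among named genes, the largest H3K27me3 values above 0 in the authors' deposited table were at the brain factor foxb1a, with a log2 fold change of 0.73 (SE 0.34, unadjusted p = 0.0314), and the vesicle protein gene doc2d, with 0.68 (SE 0.31, unadjusted p = 0.0312). Below 0 stood ppfia1 at −0.73 (SE 0.37, unadjusted p = 0.0475), pimr128 at −0.69 (SE 0.35, unadjusted p = 0.0497) and prrx1b at −0.61 (SE 0.33, unadjusted p = 0.0623). None of these passes adjustment over the table, where every member stands at an adjusted p of 1.00.

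The direction of the small changes was uneven. In the authors' deposited table the H3K27me3 log2 fold change was above 0 at 672 members and below 0 at 253 (72.6%, against 48.9% of all windows), with a median of 0.16, or 1.12-fold. The median was 0.06 in the transcription factor lists, where 55.2% were above 0. It was 0.20 among clone-named genes, with 78.4% above 0, and 0.16 among other named genes, with 72.0%. Windows with both marks had a median of 0.14, with 71.6% above 0, and this too differed by name group. It was 0.16 with 82.2% above 0 at their clone-named genes. At their other named genes it was 0.01 with 51.7% above 0, and in their transcription factor lists 0.003 with 51.2%. The median SE of a member was 0.33, so a typical 95% interval reached 0.65 on either side of the value, and 907 of the 925 intervals held 0.

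**Figure D4:**
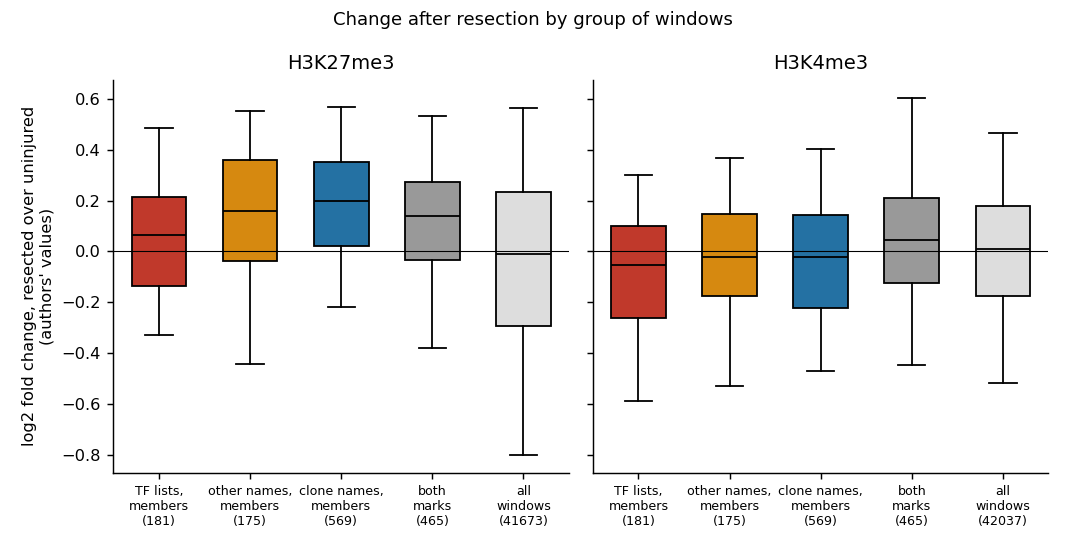
Log2 fold change after resection (resected over uninjured, authors' values) of H3K27me3 on the left and H3K4me3 on the right. Boxes show the median and quartiles of windows and whiskers the 5th and 95th percentiles, with the number of windows in brackets; H3K27me3 of clone-named members has a median of 0.20 and that of members in the transcription factor lists 0.06.

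With name groups pooled, the upward shift in the authors' deposited table went with the level of H3K27me3. Windows left out by the rule were not counted here. Windows with H3K4me3 below 60 had a median H3K27me3 log2 fold change of −0.06 where the mean H3K27me3 was below 30 normalised reads, 0.09 between 60 and 70, and 0.14 between 90 and 110. The members from 110 to 130, from 130 to 160 and from 160 on had 0.16, 0.15 and 0.16. Windows with H3K4me3 of 60 or more had −0.32 below 30 and 0.15 from 160 on. With name groups pooled, the members thus lay at the upper end of a trend shared by windows outside the set. Between the name groups of the members the order differed. The transcription factor lists had the highest median level, 139 normalised reads, against 130 at clone-named and 125 at other named genes. Their median change was the smallest, 0.06 against 0.20 and 0.16.

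**Figure D5:**
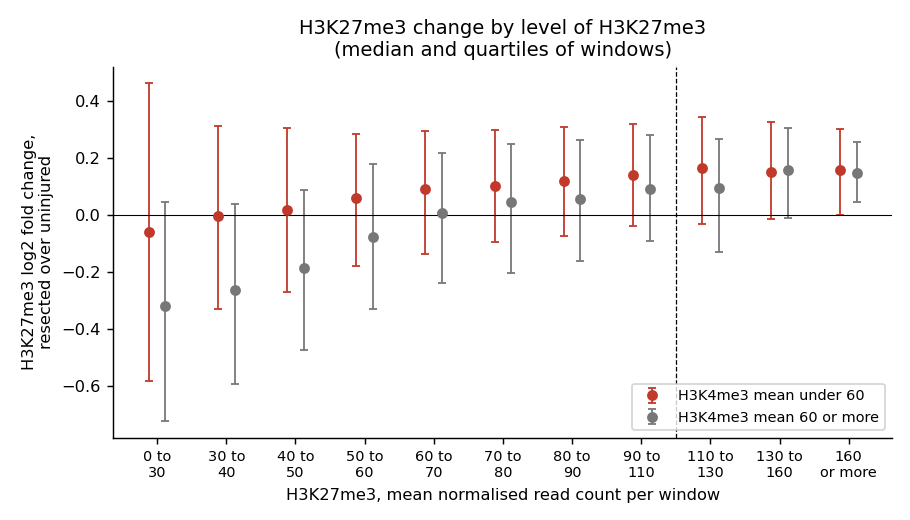
Median H3K27me3 log2 fold change (points, resected over uninjured) with quartiles of windows (bars) by mean H3K27me3, for windows with H3K4me3 below 60 (red) and of 60 or more (grey). Members are the red points right of the dashed line at 110, at medians of 0.15 to 0.16, after red points that climb from −0.06.

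For H3K4me3 the authors gave an adjusted p to 198 members. The other 727 had too low a mean, since no window with a mean below 51.8 normalised reads was given one. None of the 198 had an adjusted p under 0.05 (DESeq2, authors' deposited table), against 3.04% of the 24913 windows with an adjusted p, and the smallest was 0.161, at gyltl1b. By direction the background was 1.44% of windows higher and 1.6% lower, with 0 members in either. At an unadjusted p under 0.05 there were 35 members (3.78%), against 8.47% of all windows. Of these 32 were lower after resection (3.46% of members, background 4.64%) and 3 higher (0.324% of members, background 3.83%). Windows below both thresholds, where H3K4me3 was scarce too, had 2.98% lower and 1.17% higher.

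Among the transcription factor lists, 11 of 181 windows, belonging to 9 genes, had an unadjusted p under 0.05 and all 11 were lower (6.08%, background 4.64%). They included windows of cdx1b, hoxb3a, hoxc6a, hoxc6b, otpa, pax6b with 3 windows, pitx1 and sox2. The 3 pax6b windows overlap almost entirely, so the 11 are not independent. In the authors' deposited table, cdx1b, a gut and tail factor, had a log2 fold change of −0.78 (SE 0.30, unadjusted p = 0.00857). The largest value above 0 was at gyltl1b, a glycosyltransferase gene of the dystroglycan pathway, with 0.76 (SE 0.29, adjusted p = 0.161, DESeq2).

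H3K4me3 log2 fold changes in the authors' deposited table had a median of −0.03 over the members and were above 0 at 43.8% of them, against 51.3% of all windows. In the transcription factor lists the median was −0.05, with 35.9% above 0. Windows below both thresholds had −0.04 with 44.3% above 0. The standard errors of the H3K4me3 table stop at a ceiling of about 0.30, which marks shrunken fold changes. Undoing a prior of that size multiplies those of members by a median of 1.67 and gives a median of −0.06. Across the members, which share libraries and in part overlap, the Wald statistics of H3K27me3 and H3K4me3 had a Pearson r of 0.12 (n = 925 windows, Spearman rho 0.12), and in the transcription factor lists r was −0.07 (n = 181).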

How the data were processed

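The authors deposited 1 table per mark with a row per promoter window; per the file headers, the columns are named as in DESeq2 output. The signal is the authors' mean normalised read count over resected and uninjured libraries together. The log2 fold change, its standard error on the log2 scale, the Wald score, the p-value and the adjusted p-value are the authors' deposited values too. Per the submitters' processing notes, the tools were Bowtie2 2.3.2, BWA, SAMtools, DESeq2, MACS2, bedtools 2.26.0 and Picard 2.8.1, and danRer7, GRCz10 and danRer10 are named, with no role given, so which build the coordinates (counted from 1) belong to is not stated there. Levels, changes and p-values per window are taken from these tables throughout. The planned count test was not run, since the tables hold no values per library. The authors' test took its place. The design text calls the libraries biological replicates, and every p-value rests on 3 libraries per condition.

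Tables were joined on gene ID and coordinates with Python 3.11.15 and pandas 2.3.3. Gene lists are symbol patterns (32 lists, 10 of them transcription factors), and 562 of 711 member genes matched a gene name table. The members and lists were chosen with earlier results of these data known. Named genes are the 15 members highest in H3K27me3, the 5 with the largest Wald statistic per mark and direction, up to 4 per list, those next to the thresholds and the 5 with the highest H3K4me3 at another window; genes outside it, such as a and b copies, were named after their values were seen. Of the members, 159 windows (17.2%) overlap a window of another gene, against 23.1% of all windows. Prior SD undone for H3K4me3: 0.603. The scripts were tested on simulated data. No promoter sequence is shown, and none was used here. Results for some genes that this rule selects are not reported here.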

Additional observations from a re-analysis of the deposited data

How the results depend on the processing

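The number of windows depends on the thresholds: 35 at H3K27me3 of at least 150 and H3K4me3 below 40, and 2552 at 90 and 80, against 925. The share in the transcription factor lists was 57.1% and 9.29% there, against 19.6%. With the looser thresholds 1 window had an adjusted p under 0.05 for H3K4me3, kcna4 at a log2 fold change of 0.95 (SE 0.28, adjusted p = 0.0257, DESeq2). Taking 1 window per gene (711), leaving out windows that overlap another gene's (766) or keeping the long arm of chromosome 4 and the mitochondrion (1031) kept the number within 1.5 times. No other alternative run gave a call, including adjustment over all windows with a p-value (smallest adjusted p of a member 0.0935, H3K4me3). The median log2 fold change lay between 0.09 and 0.16 for H3K27me3 and between −0.06 and −0.01 for H3K4me3; leaving out clone-named genes, an alternative chosen after seeing the data, gave 0.11 and −0.05. Under the stricter thresholds, the H3K27me3 median in the transcription factor lists was −0.03, against 0.06. No paired analysis was possible because the deposited tables hold no values per library. For the same reason leaving out each replicate and other normalisations were not run, and promoter sequence and motifs were not analysed here. Depth per library is unknown, and the low H3K4me3 counts of members limit what could be called.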
